A study of Mus musculus with 2 samples.

Results

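Elastic fibre genes were described in mouse neural progenitor cells in the first day of induced reprogramming. The set was defined by name and holds 10 genes: the fibulins Fbln1, Fbln2 and Fbln5, elastin (Eln), the fibrillins Fbn1 and Fbn2, the microfibril-associated genes Mfap2, Mfap4 and Mfap5, and the crosslinking enzyme gene Lox. Every non-control probe carrying one of these names was taken, which gave 15 of the 41168 probes used. Of the 10 genes, 8 were well above background on both arrays and 2, Mfap5 and Lox, on neither. The set was chosen with the differences of these arrays known, in particular that of Fbln5, so the values below describe these arrays and are not tested.

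Elastic fibres give stretchable tissues such as arteries, lung and skin their recoil. Fibrillins polymerise into microfibrils, microfibril-associated glycoproteins decorate them, tropoelastin is deposited on them with the help of fibulins, and lysyl oxidases crosslink it into an insoluble core. Fibrillin microfibrils also hold latent TGF-beta and BMP growth factors in the matrix, and fibulin-5 carries a motif that binds integrins.

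The study compared 2 lines of N31, neural progenitor cells of strain 129/Ola grown from induced pluripotent stem cells that had been made from a line called NSEB5-2C. Both lines carry transgenes for Oct3/4, Sox2, Klf4 and c-Myc that doxycycline switches on, and both had been in doxycycline for 24 h. One line overexpressed EGFP, a fluorescent protein used as the control, and the other Pax6, a paired-box regulator of eye and forebrain development, each from a CAG construct inserted with the Tol2 transposon. Cells of the EGFP line had by then visibly changed shape and those of the Pax6 line had not, and the comparison addressed the transition from a mesenchymal to an epithelial state. Total RNA of each line was measured on 1 Agilent 1-colour array, with no array of cells without doxycycline analysed here. The labels do not say whether each line is 1 clone or a pool.

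Each line has 1 array, so the differences have no replicate check and carry no p-value. Values after ± are the scanner software's measurement error carried to the log2 difference, which had a median of 0.20 over all genes and leaves out the variation between cultures. Signals are background-subtracted intensities, and differences are Pax6 minus EGFP on the log2 scale after each array's 75th percentile (854 and 991) was set equal. The share of non-control spots detected well above background was 64.7% for EGFP and 67.2% for Pax6, no spot was saturated, and precision is limited by the number of arrays. Of 13 neural progenitor markers 12 were above background, among them Vim, Cd44 and Nes, and Hes5 was not. All 11 fibroblast markers were also above background on at least 1 array, so detection alone does not tell these cell types apart. Of all named genes, 66.9% were above background on at least 1 array. Sox1 (19.2 and 18.7) and Fabp7 (12.3 and 19.7) were dim, beside lowest signals well above background of 10.3 and 9.30. The transcription factor gene Sox2 was 3.34-fold higher on the Pax6 array, the progenitor filament gene Nes 3.17-fold lower and the radial glia transporter gene Slc1a3 12.9-fold lower (-3.69, and -2.11 with the median of its probes). Whether the Sox2 probe also reads the doxycycline-driven transgene was not tested.

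Among the 8 elastic fibre genes above background, Fbln5 and Mfap4 were higher on the Pax6 array by 2-fold or more, Fbn2 was at least 2-fold lower, and Fbln1, Fbln2, Eln, Fbn1 and Mfap2 lay within 2-fold. These 3 of 8 stand beside 4.77% of the 19251 genes above background on at least 1 array. The background was 2.35% for genes at least 2-fold higher and 2.43% for genes at least 2-fold lower. Nothing is read from that contrast, because the set was chosen with these differences known. The median difference of the 8 genes was 0.47, beside -0.01 over all genes, and their differences ran from -1.75 to 4.79. Differences exceeded 2 measurement errors for 7 of the 8 genes, Eln being the exception, and for 17.1% of all genes. Of the 8 genes, 6 had a difference above 0, beside 47.1% of all genes, and of these Eln turned below 0 with normexp background correction and Fbln5 (-0.36) with the median of its 3 probes.

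**Figure D1:**
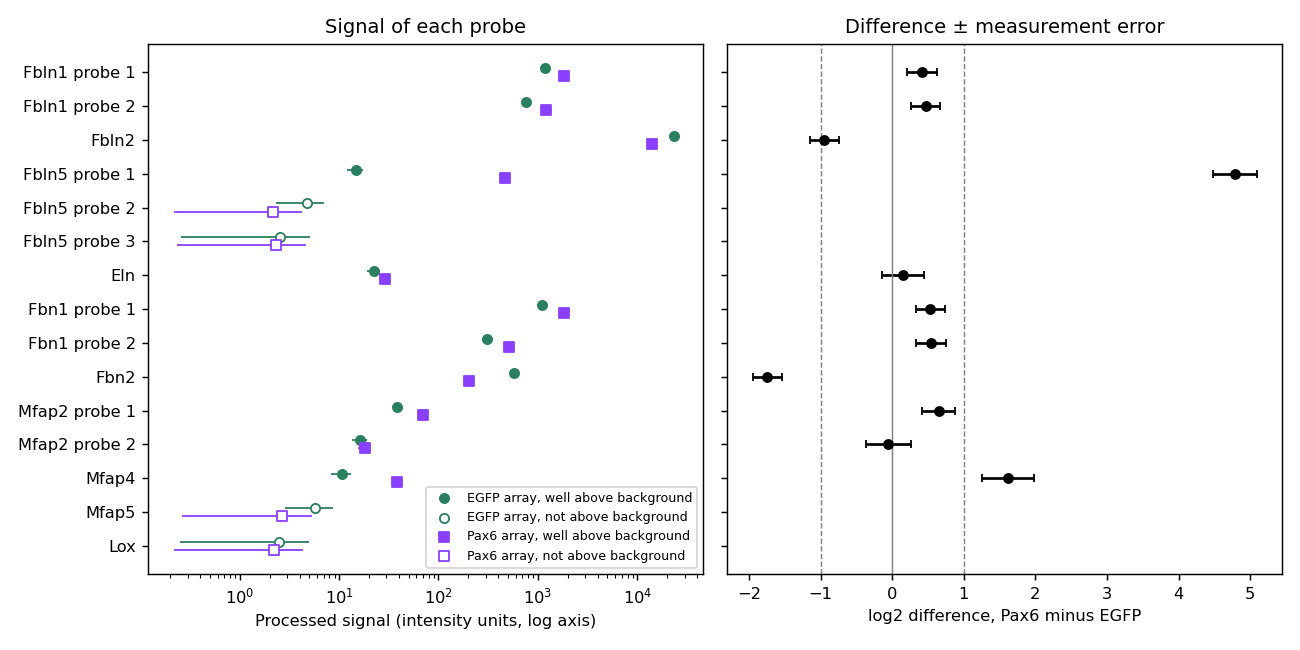
Processed signal of the 15 elastic fibre probes on the EGFP array (circles) and the Pax6 array (squares), on a log axis with the software's signal error, and the log2 difference of each probe above background with its measurement error. Bars of dim signals that would reach 0 are shortened on their left side, and dashed lines mark 2-fold. The Fbln5 probe at 4.79 stands far to the right, while the other Fbln5 probes are open symbols, not well above background.

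The fibulins are calcium-binding glycoproteins that bridge elastin, microfibrils and basement membranes. Fbln5, the gene of fibulin-5, which tethers elastin to microfibrils and to cells, gave a signal of 14.7 in EGFP cells and 472 in Pax6 cells. The software's error of these signals was 2.77 and 47.3. The difference was 4.79 ± 0.31, or 27.7-fold higher on the Pax6 array, and ranked 4 from the top of all 19251 genes. With normexp background correction it was 2.67, the EGFP signal being close to 10.3, the lowest signal well above background there. The raw spot brightness told the same order, 56.3 over a local background of 28.5 in EGFP cells and 526 over 30.0 in Pax6 cells.

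This value rests on 1 of 3 Fbln5 probes. It is the probe at chromosome 12, 99245331 to 99245390 (build mm7 of the array design, as for all probe positions here), assigned to NM_011812. A second probe of the same transcript, at 99242020 to 99242079, lies 3311 bases away, and the gene runs on the minus strand, so it is nearer to the gene's end. It read 4.71 in EGFP cells and 2.16 in Pax6 cells, not well above background on either. The third probe, from the cDNA AK084895 at 99259844 to 99259903, read 2.57 and 2.33 and was not above background either. The unequal response of the 3 probes is a measurement of these arrays, and its cause was not tested. Of 260 genes at least 2-fold different that were measured on both arrays and had several probes, 69 (26.5%) had no other probe above background. That count takes all probes under a gene name, so it gives no rate for a second probe of the same transcript.

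Fbln2 was lower on the Pax6 array and Fbln1 slightly higher. Fbln2, the gene of fibulin-2, a binding partner of fibrillin-1 and tropoelastin (probe at chromosome 6, 91354450 to 91354509), read 23475 in EGFP cells and 14121 in Pax6 cells. Its difference was -0.95 ± 0.20, or 1.93-fold lower, just short of the 2-fold rule, and it stayed within 2-fold under each alternative tried. Fbln1, the gene of fibulin-1, found in elastic fibres and around basement membranes, had a pair of probes 144 bases apart on chromosome 15. The brighter one (85367889 to 85367948) read 1184 and 1832, a difference of 0.42 ± 0.20. The other read 758 and 1217, a difference of 0.47 ± 0.20, so both probes gave the same sign and nearly the same size.

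Other fibulins that were not in the set were measured as well. Hmcn1, the gene of hemicentin-1, also called fibulin-6, was 4.13-fold higher on the Pax6 array (2.05 ± 0.21, signals of 82.1 and 393). Its second probe gave 2.68 ± 0.26, again higher on the Pax6 array. Efemp1, the gene of fibulin-3, was 2.21-fold higher with signals of 10647 and 27322 (1.15 ± 0.20). Efemp2, the gene of fibulin-4, which recruits lysyl oxidase to tropoelastin, differed by 0.17 ± 0.20, and Fbln7 by 0.03 ± 0.29. Of the 7 fibulin genes measured here, 3 were thus at least 2-fold higher, 0 at least 2-fold lower and 4 within 2-fold, with a median of 0.42. The background is 2.35% of all genes higher and 2.43% lower, and the 3 include Fbln5, for which the set was chosen.

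To show what lies upstream of the genes whose probes differed in opposite directions, the 250 bases before the annotated start are given for the 3 fibulins and for Fbn1, from RefSeq on build GRCm38.p6. RefSeq windows of 5 of the 10 genes were examined (8 windows, since Fbln1, Fbln5 and Mfap2 have a pair of starts). Where a gene shown has a pair, the window of the outer start is given. Windows of Fbn2, Eln, Mfap4, Mfap5 and Lox were not examined, so the only member at least 2-fold lower, Fbn2, is missing here. The windows are chr12:101819120-101819369 (minus strand) for Fbln5, chr6:91212514-91212763 (plus strand) for Fbln2, chr15:85205699-85205948 (plus strand) for Fbln1 and chr2:125506439-125506688 (minus strand) for Fbn1. Capitals mark the GC box, GGGCGG on either strand.
Fbln5: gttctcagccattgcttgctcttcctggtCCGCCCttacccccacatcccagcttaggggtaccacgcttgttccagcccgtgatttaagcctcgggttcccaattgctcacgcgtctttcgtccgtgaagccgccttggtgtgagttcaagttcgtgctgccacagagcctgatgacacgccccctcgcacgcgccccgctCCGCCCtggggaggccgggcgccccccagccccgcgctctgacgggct
Fbln2: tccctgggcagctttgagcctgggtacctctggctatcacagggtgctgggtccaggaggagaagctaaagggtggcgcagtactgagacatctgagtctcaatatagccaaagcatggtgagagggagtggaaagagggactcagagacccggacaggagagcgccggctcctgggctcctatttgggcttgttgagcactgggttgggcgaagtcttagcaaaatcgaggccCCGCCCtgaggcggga
Fbln1: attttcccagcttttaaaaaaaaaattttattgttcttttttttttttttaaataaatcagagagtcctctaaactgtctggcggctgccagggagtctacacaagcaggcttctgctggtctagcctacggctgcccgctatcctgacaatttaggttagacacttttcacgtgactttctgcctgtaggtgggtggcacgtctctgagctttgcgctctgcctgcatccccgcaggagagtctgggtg
Fbn1: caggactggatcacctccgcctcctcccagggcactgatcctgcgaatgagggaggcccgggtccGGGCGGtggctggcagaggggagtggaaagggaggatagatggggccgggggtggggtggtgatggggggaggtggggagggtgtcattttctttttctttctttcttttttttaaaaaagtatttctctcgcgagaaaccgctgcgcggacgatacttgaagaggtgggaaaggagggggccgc

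The Fbln5 window held 2 GC boxes, the Fbln2 and Fbn1 windows 1 each and the Fbln1 window none. Over all 32851 RefSeq windows of the same length, 32.7% held at least 1. The GC content of the windows was 65.2% for Fbln5, 58.8% for Fbln2, 46.4% for Fbln1 and 59.2% for Fbn1, beside a median of 52.4%. The windows of the inner starts differed from these, with 0 GC boxes and 49.6% GC for Fbln5 and 1 GC box and 62.4% GC for Fbln1. None of the 8 windows held TATAAA (12.4% of all windows), CACCTG (17.2%) or TGANTCA (6.75%), the last being the AP-1 motif, where no match says only that these letters are not in this window. Which start these cells used was not measured.

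The fibrillins, the backbone of microfibrils, differed in opposite directions. Fbn2, the gene of fibrillin-2, which is made mainly in embryonic tissue (probe at chromosome 18, 58391591 to 58391650), read 581 in EGFP cells and 201 in Pax6 cells. Its difference was -1.75 ± 0.20, or 3.35-fold lower, and ranked 65 from the bottom of all genes. Fbn1, the gene of fibrillin-1, the main fibrillin after birth, was higher on the Pax6 array on both of its probes, which lie 527 bases apart on chromosome 2. The brighter (125041844 to 125041903) read 1101 and 1846, a difference of 0.53 ± 0.20, and the other read 306 and 517, a difference of 0.54 ± 0.20. These probes differed from each other by 0.01, beside a median gap of 0.11 in 5800 genes with 2 or more probes measured on both arrays.

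Elastin itself was dim and nearly level. Eln (probe at chromosome 5, 133674539 to 133674598) read 22.4 in EGFP cells and 28.8 in Pax6 cells. Its difference of 0.15 ± 0.29 was within the measurement error, and its sign turned to -0.06 with normexp background correction, so no direction is given. Lox, the gene of lysyl oxidase, which starts the crosslinking of elastin and collagen (chromosome 18, 52894559 to 52894618), read 2.51 and 2.19, not well above background on either array, and no fold is given. Both genes have 1 probe.

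Of the microfibril-associated genes, Mfap4 was higher on the Pax6 array. Mfap4, whose product binds fibrillin-1 and elastin (chromosome 11, 61570152 to 61570211), read 10.8 in EGFP cells and 38.2 in Pax6 cells. Its difference was 1.61 ± 0.36, or 3.06-fold higher. The EGFP signal lay barely above the same limit of 10.3. With normexp background correction and its offset of 50 the difference was 0.34.

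The probes of Mfap2, the gene of MAGP-1, disagreed. The brighter (chromosome 4, 140394340 to 140394399) read 38.6 and 70.2, a difference of 0.65 ± 0.23. The other, 1709 bases away, read 16.3 and 18.2, a difference of -0.06 ± 0.31. Their gap of 0.71 was larger than that of 97.1% of the 5800 genes with several measured probes. Mfap5, the gene of MAGP-2 (chromosome 6, 122565741 to 122565800), read 5.78 and 2.64, not well above background on either array.

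**Figure D2:**
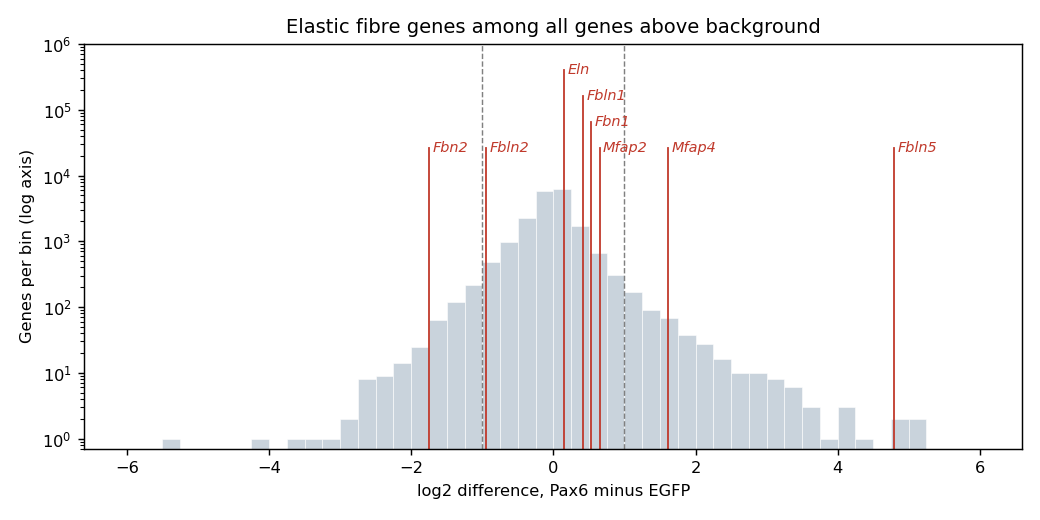
Histogram of the log2 differences of the 19251 genes above background on at least 1 array, with a log axis of genes per bin, with genes detected on 1 array placed at their lower bound. Red lines mark the 8 elastic fibre genes and dashed lines 2-fold: Fbn2 at -1.75 and Mfap4 at 1.61 lie in the tails, and Fbln5 at 4.79 among the few genes at the right end.

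The genes whose difference lay nearest to that of Fbln5, among genes with a current symbol measured on both arrays, were Crym (5.05 ± 0.21), the chemokine gene Cxcl14 (4.03 ± 0.21) and the ectoenzyme gene Entpd1 (3.66 ± 0.21). Likeness here means the gap between log2 differences over 2 arrays, which was 0.26, 0.76 and 1.13. Both probes of Entpd1 were above background, and Crym and Cxcl14 have 1 probe each.

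A list of other genes of elastic fibre assembly held 33 names, of which 28 had a probe and 25 were above background. Of these 25, 4 were 2-fold or more higher in Pax6 cells, 2 at least 2-fold lower and 19 within 2-fold, beside 2.35% higher and 2.43% lower among all genes. Their median was -0.13, beside -0.01 over all genes. Besides Hmcn1 and Efemp1, the higher genes were Thsd4, also called Adamtsl6, which promotes microfibril assembly (2.72-fold, 1.44 ± 0.20), and Emilin1, an elastin-microfibril interface glycoprotein (2.06-fold, 1.04 ± 0.20). The second Thsd4 probe gave 0.70 ± 0.30, and Emilin1 differed by 0.88, within 2-fold, with normexp background correction. The lower genes were the crosslinking enzyme gene Loxl2 (2.10-fold, -1.07 ± 0.20) and Ltbp2, a fibrillin-binding relative of the latent TGF-beta binding proteins (2.04-fold, -1.03 ± 0.32). Both Loxl2 probes were lower, the second by -1.17 ± 0.21, while scaling by the median left it at -0.99. Ltbp2 was within 2-fold with cyclic loess (-0.93), median scaling (-0.95), quantile normalization (-0.99) and normexp background correction (-0.22), and differed by -0.02 with the mean or the median of its probes. The genes with the smallest differences were Fbln7, Mfap1a (-0.04), Emilin2 (-0.13) and Loxl3 (-0.14).

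The crosslinking enzymes thus differed among themselves. Loxl1, whose product is targeted to elastin by fibulin-5, read 795 and 1572, a difference of 0.77 ± 0.20, within 2-fold. Loxl2 read 1150 and 636, and Lox was not detected above background. Loxl4 was above background on the Pax6 array only, with a lower bound of 0.09 that sets no upper limit.

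**Figure D3:**
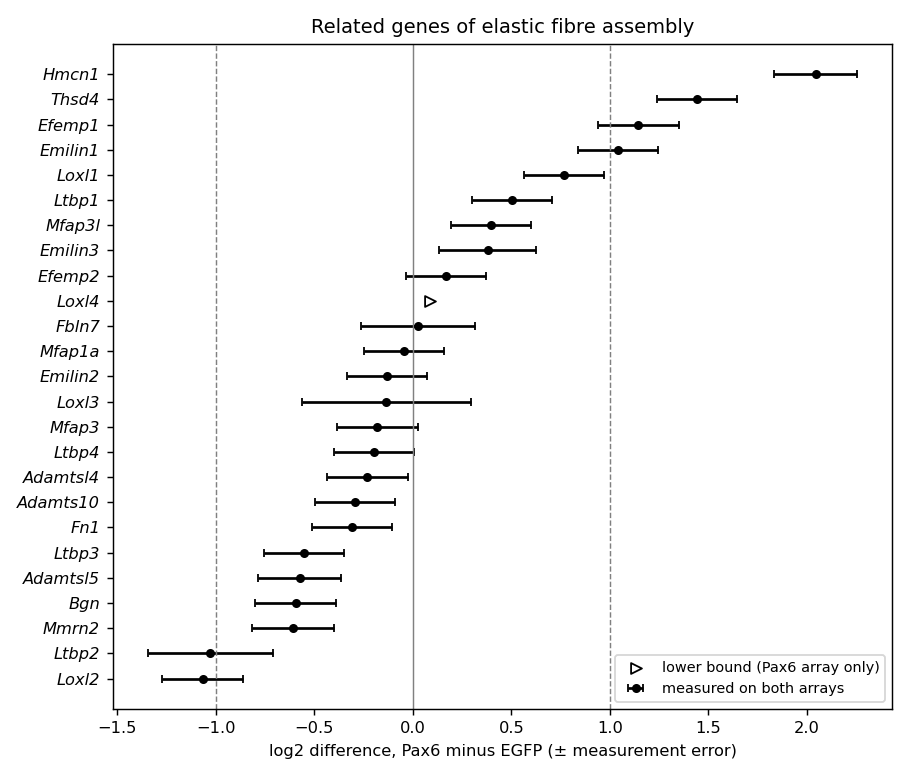
Log2 difference, Pax6 minus EGFP, of the 25 related elastic fibre genes above background, with the measurement error as bars and an open triangle for the 1 gene given as a lower bound. Dashed lines mark 2-fold: Hmcn1, Thsd4, Efemp1 and Emilin1 lie to the right of them, and Ltbp2 and Loxl2 to the left.

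No receptor, protease or TGF-beta gene on the lists below was at least 2-fold different. Of the 10 receptor genes of elastin and fibulins, 0 were at least 2-fold different and the median was 0.06. The integrin genes Itgav, Itgb3 and Itgb5, whose products bind the RGD motif of fibulins and fibrillins, differed by 0.08, 0.16 and 0.37. Of 9 elastin-degrading protease genes with a probe, 5 were above background and 0 at least 2-fold different, and the elastase gene Mmp12 was not above background. Of 13 TGF-beta genes, 0 were at least 2-fold different, with a median of 0.02, and the target Ccn2 differed by -0.69. Differences exceeded 2 measurement errors for 5 of these 13 genes, beside 17.1% of all genes, and the median size of their differences was 0.29, beside 0.18. In such short lists a count of 0 is close to the background of 4.77%.

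Markers of fibroblasts, a cell type that makes elastic fibres, moved in both directions. Of 11 fibroblast markers, 4 were 2-fold or more higher in Pax6 cells and 3 at least 2-fold lower, beside 2.35% and 2.43% of all genes. The higher ones were the protease gene Fap, detected in Pax6 cells alone (at least 19.2-fold, signals of 7.56 and 231), the matrix proteoglycan gene Dcn (7.71-fold), the collagen gene Col3a1 (3.80-fold) and the receptor gene Pdgfra (3.78-fold). The lower ones were the collagen genes Col1a1 (5.03-fold) and Col1a2 (2.27-fold) and the surface glycoprotein gene Thy1, detected in EGFP cells alone (at least 4.40-fold, signals of 35.2 and 8.20). The summed signal of the list, in units of each array's 75th percentile, was 302 in EGFP cells and 297 in Pax6 cells. Most of it came from S100a4, which read 162949 and 231549, and Col1a2, which read 90871 and 46506, differing in opposite directions.

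Of the 8 smooth muscle markers, 7 were above background, and the defining regulator gene Myocd was not on either array. At least 2-fold lower were 3 (the contractile and filament genes Cnn1, Tagln and Des) and 0 were 2-fold higher, beside 2.43% and 2.35% of all genes. The brightest, Acta2 (12424 and 15621), differed by 0.12, with probes from -0.39 to 0.65. Smtn (0.27), Myh11 (-0.23) and Lmod1 (-0.31) were within 2-fold too. The list summed to 19.1 and 18.0. Of the 9 endothelial markers, Pecam1, Cdh5, Emcn and Tie1 were not above background. Icam2, an adhesion gene, was detected in Pax6 cells alone and at least 18.6-fold higher (signals of 9.65 and 223). The list summed to 5.77 and 4.30, mostly from the receptor gene Flt1 (4868 and 3972). Of 5 astrocyte markers, 1 was at least 2-fold higher, beside 2.35% of all genes. It was the water channel gene Aqp4, detected in Pax6 cells alone (at least 3.86-fold, signals of 4.97 and 46.3). The astrocyte sums were 2.55 and 3.17. With normexp background correction and its offset of 50 the log2 differences shrank to 1.92 for Fap, 1.86 for Icam2 and -0.34 for Thy1. The same step gave 0.50 for Aqp4, -0.56 for Des and -1.38 for Cnn1. With the median of its probes Col1a1 was -1.28. The part of these cell types in the elastic fibre differences was not tested, and in bulk RNA fewer cells of a type and less RNA per cell cannot be told apart.

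**Figure D4:**
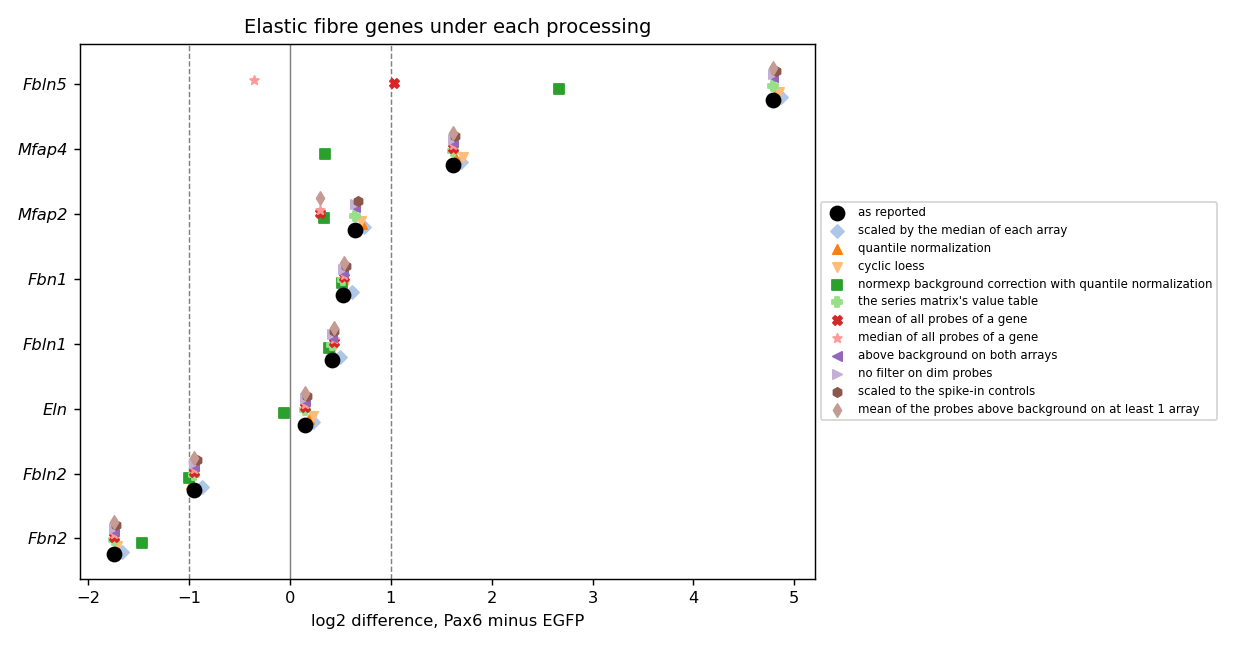
Log2 difference, Pax6 minus EGFP, of the 8 elastic fibre genes as reported (black circles) and under each of the 11 other ways of processing (coloured symbols), with dashed lines at 2-fold. Fbln5 spreads from -0.36 with the median of its 3 probes to 4.87 with median scaling, while Fbln1, Fbln2 and Fbn1 move by less than their measurement error.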

How the data were processed

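Total RNA of both lines was extracted with ISOGEN, amplified and labelled with Cy3, per the labels' protocols. The authors deposited intensity values from Agilent Feature Extraction 10.7.3.1, background-subtracted and detrended within each array but not normalized between arrays, per the file headers. The deposited flags mark outliers and spots well above background (13.0 SDs of it), and the software's error has a multiplicative part of 10.0%, per the file headers. The deposited series table holds the same values (largest relative difference 0). Outlier spots (51 and 52) were left out, processed signals were put on the log2 scale, each array's 75th percentile was subtracted and replicate spots were averaged. Each member probe has 1 spot. A gene took its brightest probe above background, a gene detected on 1 array enters at its lower bound against the lowest signal above background (10.3 and 9.30), and genes were counted by a rule of 2-fold. Current symbols were matched by accession (22951 probes, and 14 of the 15 member probes). Genes were named by rule: all members, each list gene at least 2-fold different and the 3 nearest to Fbln5. List genes with the smallest differences were named in part. Others are examples chosen after their values were seen. Members, lists and rules were chosen with earlier results of these data known. Of the 33 related names, Hmcn2, Mfap1b, Adamts17, Adamtsl6 and Vcan had no probe under that symbol, and Mmrn1, Adamtsl2 and Tnxb were not above background. Normalizations used limma 3.58.1 in R 4.3.3, and the steps were tested on simulated data. The simulation changed only genes bright on the EGFP array and held no lower bounds. Changes in genes dim there, such as Fbln5 and Mfap4, were thus not covered. Probe positions are those of the array design (mm7), and exons and untranslated regions are not stated since no gene models on mm7 were used.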

Additional observations from a re-analysis of the deposited data

How the results depend on the processing

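The 11 other ways of processing a difference were other scalings, another background correction, other choices of probe and other filters. Scaling to the spike-in controls and the mean of a gene's probes above background were chosen after seeing the data. Fbln1, Fbln2, Eln and Fbn1 moved by less than their measurement error under all 11, although Eln changed sign with normexp background correction. Normexp was run with an offset of 50 added to every signal, which makes the differences of dim genes smaller. Fbln5 was 2.67 with normexp, 1.03 with the mean of its 3 probes and -0.36, a reversed sign, with their median. The other Fbln5 probes are not well above background on either array, so these averages mix a detected signal with undetected ones. With normexp, Fbn2 was -1.46, Mfap2 0.33 and Mfap4 0.34. Mfap2 was 0.30 with the mean or median of its probes or with the mean of those above background. The median of the members was 0.22 with the median of probes. The number of members at least 2-fold different ranged from 2 to 4 over the alternatives. All genes at least 2-fold different numbered 919, but 285 with normexp, 2543 without a filter on dim probes and 268 at 3-fold. Of the 919, 49.2% were higher on the Pax6 array, 59.3% (538 of 908) after scaling by the median and 61.8% with normexp. The 6 related genes became 1 (Hmcn1) at 3-fold. No paired analysis was possible because each line has 1 array. Signals under the detection limits (10.3 for EGFP, 9.30 for Pax6) could not be measured, which limits Lox, Mfap5 and the dimmer Fbln5 probes.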

Other observations

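The latent TGF-beta binding proteins, relatives of the fibrillins that anchor latent TGF-beta to microfibrils, differed by gene. Only Ltbp1 and Ltbp3 had a pair of probes above background, and in each the pair had the same sign. Ltbp1 was higher on the Pax6 array on both of its probes, with signals of 1974 and 3247 (0.50 ± 0.20) and of 59.5 and 115 (0.74 ± 0.21). Ltbp3 was lower on both, with signals of 2982 and 2358 (-0.55 ± 0.20) and of 208 and 182 (-0.40 ± 0.21). Ltbp4 differed by -0.20 ± 0.20. The second Ltbp2 probe was not above background on either array. The matrix glycoprotein gene Mmrn2, of the Emilin family, was lower (-0.61 ± 0.21) where Emilin1 was higher. These differences are within 2-fold apart from those of Emilin1 and Ltbp2, and with 1 array per line none was tested.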
